A study of Mus musculus with 8 samples.

Results

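The interferon-induced genes described here are 9 genes of the mouse that type I interferon switches on: Ifit1, Ifit2, Ifit3, Isg15, Irf7, Oasl2, Rsad2, Usp18 and Bst2. They were chosen by name, and a gene was read where an array probe set (a group of short probes against one transcript) named it and no other gene. That gave values for 8 of the 9 genes, from 10 probe sets, among 18193 genes with such a probe set. Isg15 has no value here, because the probe set that names it also names Gm9706. Rsad2 had 3 probe sets and each other gene 1.

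RNA came from the back of the palate in newborn BALB/c pups on postnatal day 1, in 4 groups with 2 Affymetrix arrays each, which the labels call biological replicates. The pregnant dams carried an osmotic minipump under the skin, and all groups therefore shared that implant. It delivered nicotine at 1.5, 3.0 or 4.5 mg/kg/day, or sterile physiological saline, and the litters were born naturally. The labels give 2 newborn pups for the RNA extraction but not whether an array pooled them or how many litters were used, so p-values measure only the spread between these arrays.

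Cells that sense viral nucleic acid secrete type I interferons, which bind the receptor pair IFNAR1 and IFNAR2 on nearby cells. The kinases JAK1 and TYK2 then start a signal to the nucleus, where a complex that contains IRF9 binds promoters at a short repeated GAAA element. The genes switched on in this way block virus at several steps, from RNA recognition to release of particles, and many have a low level in tissue without infection.

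The promoters of the genes show how often that element occurs in them, and 4 stretches with it are printed here. Promoter windows of 300 bases (250 before the annotated start and 50 from it on) were taken from RefSeq on GRCm38.p6 and searched on both strands for GAAA, any 2 bases and GAAA again, with overlapping matches counted. The element was present in 62.5% of the 8 interferon-induced genes with a window (5 genes), against 3.99% of all 27025 genes with a window and 3.44% of 32851 windows. These 8 are not the 8 genes with array values: they include Isg15 and lack Usp18, which had no window. Ifit1, Ifit3 and Bst2 each had 2 matches, which only 0.23% of all windows reached, Isg15 had 3 and Rsad2 had 1. The windows of Irf7, Oasl2 and Ifit2 did not hold these letters. Below, capitals mark the matched bases, each sequence runs 5′ to 3′ along its gene, and a match on the opposite strand reads as TTTC repeats.
Ifit1, whole window, plus strand, chr19:34640639-34640938: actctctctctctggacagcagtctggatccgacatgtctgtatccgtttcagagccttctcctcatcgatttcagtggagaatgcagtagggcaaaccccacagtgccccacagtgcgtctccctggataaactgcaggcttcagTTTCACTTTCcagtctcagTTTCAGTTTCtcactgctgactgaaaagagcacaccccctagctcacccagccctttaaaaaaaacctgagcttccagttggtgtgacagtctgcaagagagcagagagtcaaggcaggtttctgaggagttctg
Ifit3, plus strand, chr19:34583345-34583444: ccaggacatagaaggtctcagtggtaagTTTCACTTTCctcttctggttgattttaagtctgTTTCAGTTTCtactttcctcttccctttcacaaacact
Bst2, minus strand, chr8:71537545-71537644: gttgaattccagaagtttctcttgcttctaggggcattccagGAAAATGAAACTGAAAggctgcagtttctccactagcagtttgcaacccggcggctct
Rsad2, minus strand, chr12:26456518-26456617: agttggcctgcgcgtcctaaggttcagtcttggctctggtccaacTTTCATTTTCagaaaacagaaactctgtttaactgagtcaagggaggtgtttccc
In Ifit1 the pair of matches lies between 104 and 76 bases before the start. A match is a description of these letters and was not tested as a binding site.

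Tissue markers separated the saline arrays from the nicotine arrays, which bears on every comparison with saline. Summed over 9 intestine genes, intensity was 77 to 663 in the nicotine arrays and 8725 to 17180 in the saline arrays. Of the 9, 2 to 8 lay above the level filter in the nicotine arrays and all 9 in both saline arrays. Summed intensity of 10 stomach genes was 170 to 197 with nicotine, against 10686 to 11028 with saline. That of 7 kidney genes was 59 to 110 with nicotine, against 1295 to 2878 with saline. The actin probe sets, which tell of RNA integrity, had a 3′ over 5′ ratio of 0.954 to 1.39 with nicotine, against 1.74 and 1.65 with saline. Epithelial genes (8) summed to 621 to 3886 with nicotine, against 4625 to 7000 with saline. Other tissues were higher with nicotine: 8 brown fat genes summed to 1153 to 13973, against 554 to 1072 with saline, and 10 skeletal muscle genes to 25568 to 33090, against 17259 to 22440 with saline. Lung genes summed to 206 to 13016 with nicotine and 365 to 894 with saline. Liver genes were high in both saline arrays and in nicotine 1.5 replicate 2. Summed intensity of 11 palate patterning genes was also higher with nicotine, at 605 to 1027, against 317 to 566 with saline. Of these 11 genes, 8 to 10 lay above the level filter in the nicotine arrays, and 9 and 7 in saline replicates 1 and 2. Among them Meox2 was clearly present (log2 levels of 8.04 to 8.80 with nicotine and 6.40 and 7.61 with saline). Tbx22, a transcription factor of the palatal shelves, stayed under the filter level in all 8 arrays at no more than 4.46. An effect of nicotine, the tissues in the sample and RNA integrity therefore cannot be told apart in any comparison with saline. In such bulk RNA, fewer cells of a type and less RNA per cell cannot be told apart either.

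Ifit1 was the one measured interferon-induced gene called as lower in the nicotine arrays: its level was low in all 6 of them and high in both saline arrays. The other 7 measured genes did not pass the test at any dose, which does not show that they were unchanged. No gene of the group was called as higher. Levels below are log2(intensity + 16) after quantile normalization, and a gene counts as changed at an adjusted p under 0.05 in limma (two-sided, Benjamini-Hochberg over 13586 genes). For the mean of the 3 doses against saline, 1 of 8 measured genes fell and 0 rose, where 5.4% of all genes tested fell and 4.75% rose. The median log2 fold change of the 8 genes was -0.54, and 5 of 8 were negative. Over all genes tested that median was 0.07, and 44.1% were negative.

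Ifit1 encodes a protein that binds viral RNA lacking the host's cap methylation and blocks its translation. Its gene lies on chromosome 19 at 34640889 to 34650009 (GRCm38.p6), close to Ifit3 and Ifit2. The intensity of Ifit1 was 165 and 67.8 with saline, 4.58 and 15.4 at nicotine 1.5, 5.75 and 12.5 at 3.0, and 20.9 and 10.8 at 4.5 mg/kg/day. Both saline arrays lay above all 6 nicotine arrays, a separation that 12.6% of all genes tested showed in this direction. The mean log2 level was 4.77 over the nicotine arrays and 6.86 ± 0.75 with saline (SD, n = 2). The log2 fold change for the mean of the doses was -2.09 ± 0.32 (SE; 95% interval -2.86 to -1.32; limma adjusted p = 0.01466), a 4.27-fold lower level on this scale.

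The size of that fold rests on values near the floor of the arrays. Of the 6 nicotine arrays, 5 were under the filter level of 4.94, so Ifit1 entered the test through its saline level alone and the call gives no support to a fall of the group. With an added constant of 1 in place of 16 the log2 fold change was -3.12. Without nicotine 3.0 replicate 1 the adjusted p was 0.0516, and the gene was not tested with the filter at the 60th percentile.

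**Figure D1:**
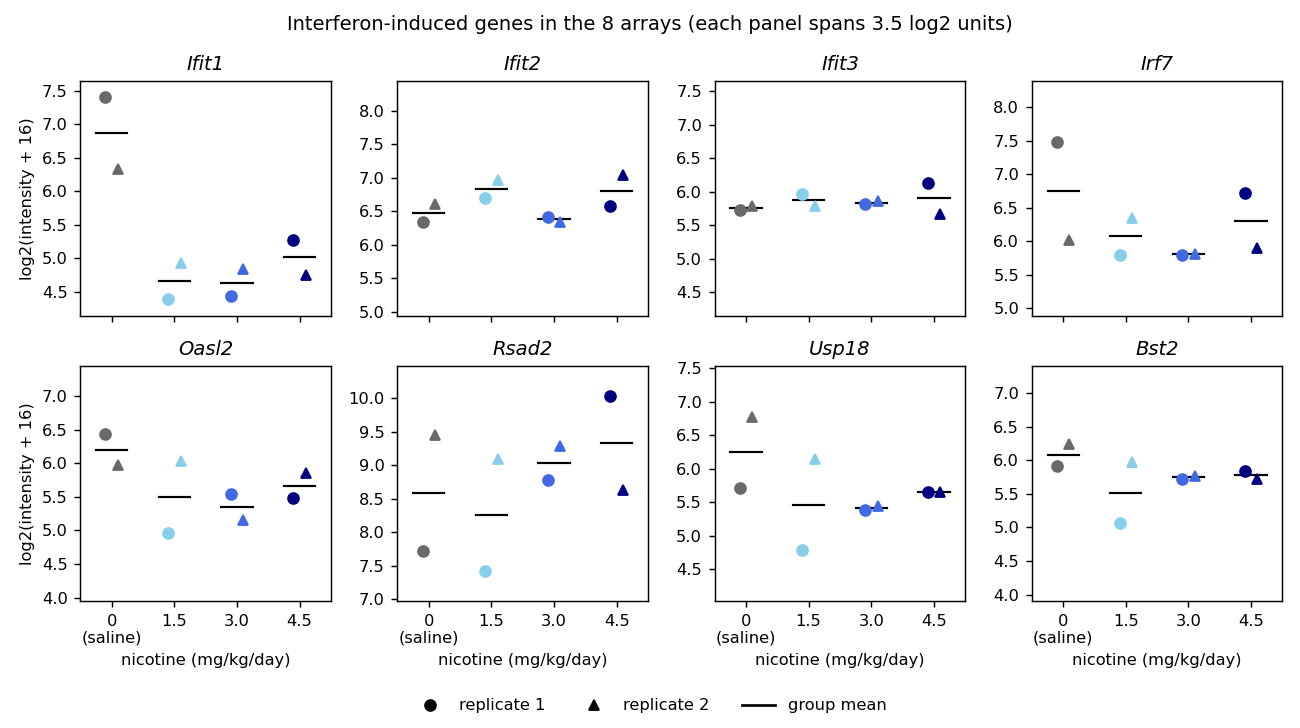
Log2(intensity + 16) of the 8 measured interferon-induced genes by nicotine dose (mg/kg/day, saline at 0). Circles are replicate 1, triangles replicate 2, bars the mean of 2 arrays, and each panel spans the same number of log2 units. Ifit1 is at 4.39 to 5.27 in the nicotine arrays and at 7.40 and 6.33 with saline, and in each other panel the nicotine and saline arrays overlap.

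Each dose was also compared with saline by itself, and these comparisons share the saline arrays. At 1.5 mg/kg/day Ifit1 had a log2 fold change of -2.20 ± 0.40 (adjusted p = 0.04362) and was the only one of the 8 genes to fall, where 1.75% of all genes fell and 0.729% rose. At 3.0 mg/kg/day it had -2.23 ± 0.40 (adjusted p = 0.03382), again 1 of 8 genes, where 2.38% of all genes fell and 1.35% rose. At 4.5 mg/kg/day it had -1.85 ± 0.40 (adjusted p = 0.04296), 1 of 8 genes, where 3.97% of all genes fell and 2.91% rose. These calls sat close to the limit: with an added constant of 1 the adjusted p was 0.06615, 0.05162 and 0.06785 at the 3 doses, and each call was lost without either array of its own dose (adjusted p = 0.1297 and 0.06497 at 1.5, 0.2246 and 0.1971 at 3.0, 0.1204 and 0.1462 at 4.5 mg/kg/day). In the order of group means, saline came first, then 4.5 (5.02 ± 0.36), 1.5 (4.66 ± 0.39) and 3.0 mg/kg/day (4.64 ± 0.28; SD, n = 2). The last 3 did not differ beyond their spread, with 4.5 over 3.0 mg/kg/day at 0.38 ± 0.40.

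The other members of the same family, Ifit2 and Ifit3, encode proteins whose human counterparts bind RNA in complexes with IFIT1, and neither followed Ifit1. Ifit2 had intensities of 73.6 and 85.8 with saline, 82.8 and 113 at 1.5, 67.9 and 62.4 at 3.0, and 73.8 and 109 at 4.5 mg/kg/day. Its nicotine arrays lay on both sides of the saline pair, and its log2 fold change for the mean of the doses was 0.19 ± 0.18 (95% interval -0.24 to 0.63; adjusted p = 0.5021). Ifit3 had 42.0 and 40.3 with saline, 45.3 and 42.7 at 1.5, 38.7 and 40.5 at 3.0, and 49.8 and 32.5 at 4.5 mg/kg/day. It varied least of the 8 genes, with a log2 fold change of 0.11 ± 0.17 (95% interval -0.28 to 0.51; adjusted p = 0.6697). The 3 genes lie close together on chromosome 19, from 34550550 for Ifit2 to 34650009 for Ifit1. Across the 8 arrays the log2 level of Ifit1 correlated with that of Ifit2 at r = -0.36 and with that of Ifit3 at r = -0.28.

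Irf7 encodes the transcription factor that amplifies interferon production once the response has begun. Its intensity was 176 and 50.8 with saline, 38.9 and 70.4 at 1.5, 38.4 and 38.3 at 3.0, and 84.5 and 40.4 at 4.5 mg/kg/day. Saline replicate 1 stood far above the other 7 arrays, and saline replicate 2 lay among the nicotine arrays. The log2 fold change of Irf7 was -0.69 ± 0.41 (95% interval -1.66 to 0.28; adjusted p = 0.291). It was 0.04 without saline replicate 1. Without saline replicate 2 and nicotine 1.5 replicate 2, the arrays highest in liver genes, it was -1.51 with an adjusted p of 0.0481.

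Oasl2 belongs to the oligoadenylate synthetase-like proteins, which act beside the RNA sensors of the cell. It had intensities of 79.6 and 48.2 with saline, 14.7 and 53.6 at 1.5, 29.5 and 19.0 at 3.0, and 26.5 and 39.2 at 4.5 mg/kg/day. Of the nicotine arrays, only 1.5 replicate 2 reached the saline range. The log2 fold change was -0.70 ± 0.31 (95% interval -1.44 to 0.04; adjusted p = 0.1814), and -0.46 without saline replicate 1.

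Rsad2, also called viperin, makes a modified nucleotide that stops viral RNA synthesis. Intensities of its strongest probe set were 211 and 719 with saline, 146 and 527 at 1.5, 442 and 626 at 3.0, and 1071 and 357 at 4.5 mg/kg/day. With saline and at 1.5 and 4.5 mg/kg/day the arrays of a group lay further apart than any pair of group means. Nicotine 1.5 replicate 1 was lowest, nicotine 4.5 replicate 1 highest, and the saline pair lay between them. The log2 fold change for the mean of the doses was 0.29 ± 0.64 (95% interval -1.22 to 1.80; adjusted p = 0.7847), and it was -0.58 without saline replicate 1. The other 2 probe sets of Rsad2 gave log2 fold changes of -0.06 ± 0.60 and 0.16 ± 0.60, in a fit over 27061 probe sets, and all 3 placed the arrays of each group in the same order. The level of Rsad2 did not go with that of Ifit1 (r = -0.09 over 8 arrays).

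**Figure D2:**
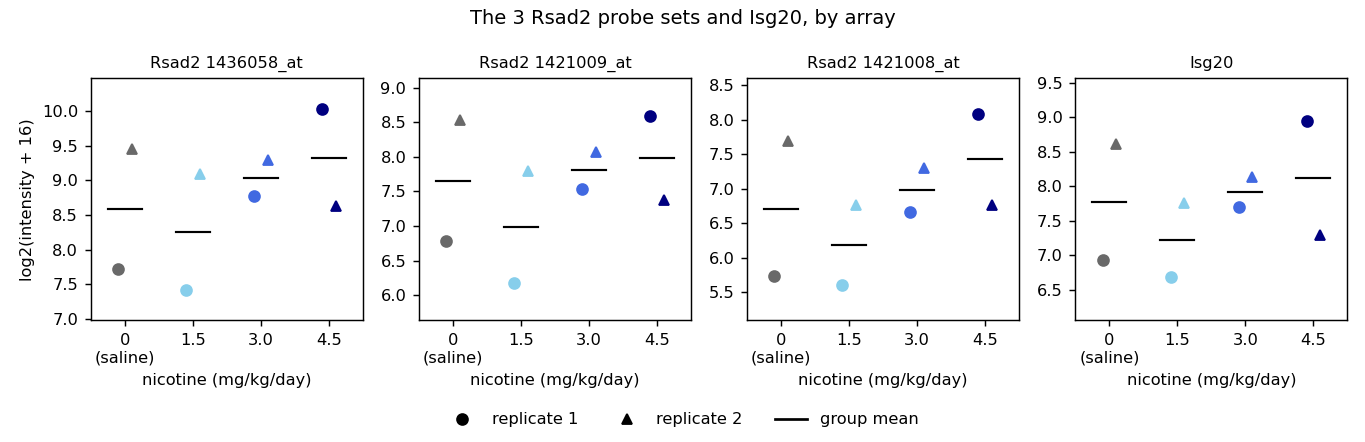
Log2(intensity + 16) of the 3 Rsad2 probe sets and of Isg20 by nicotine dose (mg/kg/day, saline at 0), with circles for replicate 1, triangles for replicate 2 and bars for the mean of 2 arrays. In each panel replicate 2 is above replicate 1 with saline, at 1.5 and at 3.0 mg/kg/day, and below it at 4.5 mg/kg/day, and Isg20 spans 6.68 to 8.94.

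Usp18 encodes the protease that removes ISG15 from proteins and shuts off signalling at the interferon receptor. Its intensity was 41.8 and 98.0 with saline, 11.2 and 58.6 at 1.5, 24.7 and 25.9 at 3.0, and 31.6 and 31.9 at 4.5 mg/kg/day. Only nicotine 1.5 replicate 2 reached the saline range, and nicotine 1.5 replicate 1 was lowest. The log2 fold change was -0.74 ± 0.40 (95% interval -1.68 to 0.21; adjusted p = 0.2527). It was -1.26 without saline replicate 1 and -0.21 without saline replicate 2.

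Bst2, or tetherin, holds budding virus particles at the cell surface. It had 50.5 and 62.4 with saline, 17.3 and 50.4 at 1.5, 35.3 and 36.9 at 3.0, and 38.2 and 34.3 at 4.5 mg/kg/day. After normalization nicotine 1.5 replicate 2 (log2 level 5.97) lay above saline replicate 1 (5.91), and the other nicotine arrays were below both saline arrays. The log2 fold change was -0.39 ± 0.25 (95% interval -0.98 to 0.19; adjusted p = 0.3198). It was -0.22 without saline replicate 2 and -0.24 without nicotine 1.5 replicate 1.

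**Figure D3:**
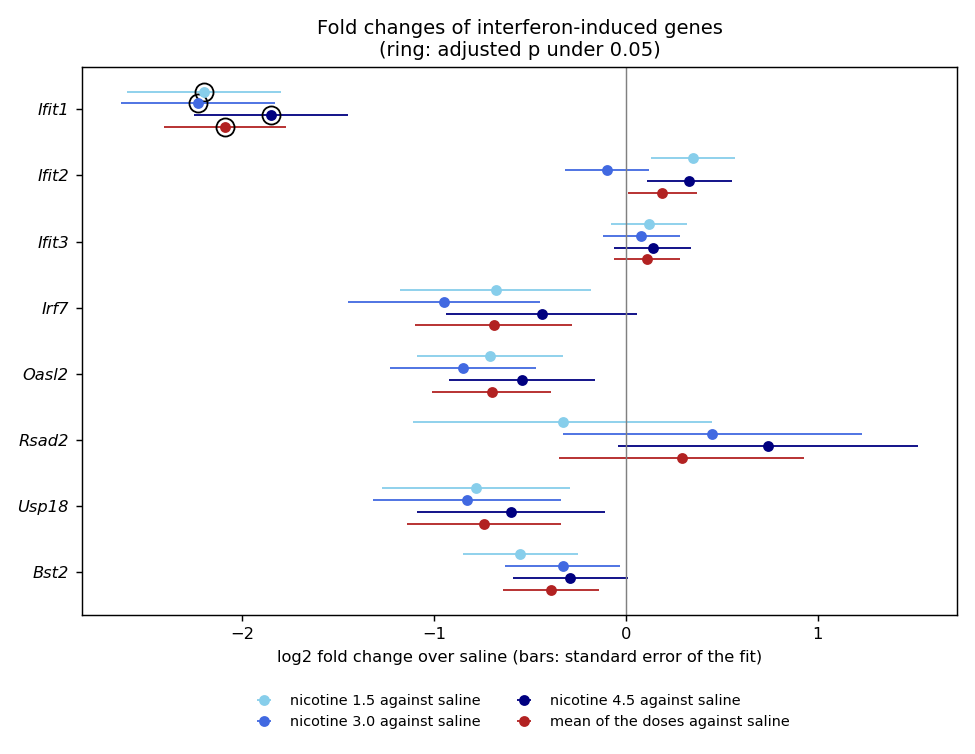
Log2 fold change over saline of each measured interferon-induced gene at nicotine 1.5, 3.0 and 4.5 mg/kg/day and for the mean of the doses, with bars for the standard error of the fit. Rings mark an adjusted p under 0.05, which Ifit1 alone reached, between -2.23 and -1.85, while Ifit2 and Ifit3 lie near 0 and the bars of Rsad2 are widest.

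No interferon-induced gene differed between doses. For 3.0 over 1.5, 4.5 over 3.0 and 4.5 over 1.5 mg/kg/day, limma called 0 of 8 of them and 0.0% of all genes. At an unadjusted p under 0.05 the count was also 0 of 8 in each pair, while 1472, 535 and 963 of all genes passed. Intervals were widest for Rsad2, whose log2 difference at 4.5 over 1.5 mg/kg/day was 1.07 ± 0.78 (95% interval -0.78 to 2.92), and the arrays could thus not settle differences of that size. Differences of Ifit3 were held more tightly, with 4.5 over 3.0 mg/kg/day at 0.06 ± 0.20 (95% interval -0.42 to 0.54).

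The lowest and highest array of each gene were read as a description. Some array is always lowest or highest, so these extremes do not test an effect of dose. Nicotine 1.5 replicate 1 was the lowest array in 6 of the 8 genes, Ifit2 and Ifit3 being the others, and in Irf7 it was all but level with the 3.0 mg/kg/day arrays. Saline replicate 1 was highest in 3 genes (Ifit1, Irf7 and Oasl2), saline replicate 2 in Usp18 and Bst2, nicotine 4.5 replicate 1 in Rsad2 and Ifit3, and nicotine 4.5 replicate 2 in Ifit2, all on the normalized scale. Averaged over the 8 genes after centring each, the log2 level was 0.35 and 0.41 with saline, -0.61 and 0.16 at 1.5, -0.25 and -0.18 at 3.0, and 0.21 and -0.09 at 4.5 mg/kg/day. The lowest and a positive value thus came from the same dose.

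Pairs of the genes differed in how they varied across the 8 arrays, which share groups and tissue makeup. Usp18 and Bst2 went together most closely (r = 0.92), followed by Ifit1 with Irf7 (0.79) and with Oasl2 (0.75). Oasl2 and Ifit3 ran most strongly against each other (-0.63). The genes outside the pathway whose log2 level was most like the mean of the 8 were Creg1 (r = 0.972), Wdr81 (0.956), BC052040 (0.952), Zdhhc12 (0.939), H6pd (0.938) and Abca4 (0.927), over 8 arrays. Creg1, which encodes a lysosomal glycoprotein, had log2 levels of 9.13 and 9.30 with saline, 7.78 and 8.81 at 1.5, 8.38 and 8.53 at 3.0, and 8.76 and 8.66 at 4.5 mg/kg/day.

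The genes most like single members were looked up after the values had been seen. Nearest to Ifit1 were Samd9l and Enpp3 (r = 0.983 each), Neu1 (0.981), Gsdmd (0.974) and Slc26a3 (0.973), the chloride and bicarbonate exchanger of the gut lining. Nearest to Rsad2 was Isg20 (r = 0.966), an interferon-induced exonuclease that degrades RNA, with log2 levels of 6.94 and 8.61 with saline, 6.68 and 7.76 at 1.5, 7.70 and 8.14 at 3.0, and 8.94 and 7.30 at 4.5 mg/kg/day.

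Ifit1 and the intestine genes both separated the saline arrays from the nicotine arrays. The median log2 level of the 9 intestine genes was 10.77 and 8.51 with saline, 5.58 and 5.25 at 1.5, 4.95 and 4.63 at 3.0, and 4.57 and 4.59 at 4.5 mg/kg/day. Within saline, replicate 1 was higher than replicate 2 in Ifit1 and in the intestine median alike. The same order held for the 8 epithelial genes, with medians of 9.63 and 8.34 and summed intensities of 7000 and 4625 in saline replicates 1 and 2. Stomach and kidney genes also separated the groups. Kidney genes were instead higher in saline replicate 2, with medians of 5.34 and 8.89 in saline replicates 1 and 2. For stomach genes the order depended on the measure, with medians of 8.27 and 8.49 but summed intensities of 11028 and 10686. Within nicotine most values of Ifit1 and of the intestine, stomach and kidney genes lay near the filter level, where their order cannot be read. Usp18, Bst2 and Rsad2 were higher in saline replicate 2, the array with the lower intestine median. The part of these tissues in the Ifit1 result was not tested.

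**Figure D4:**
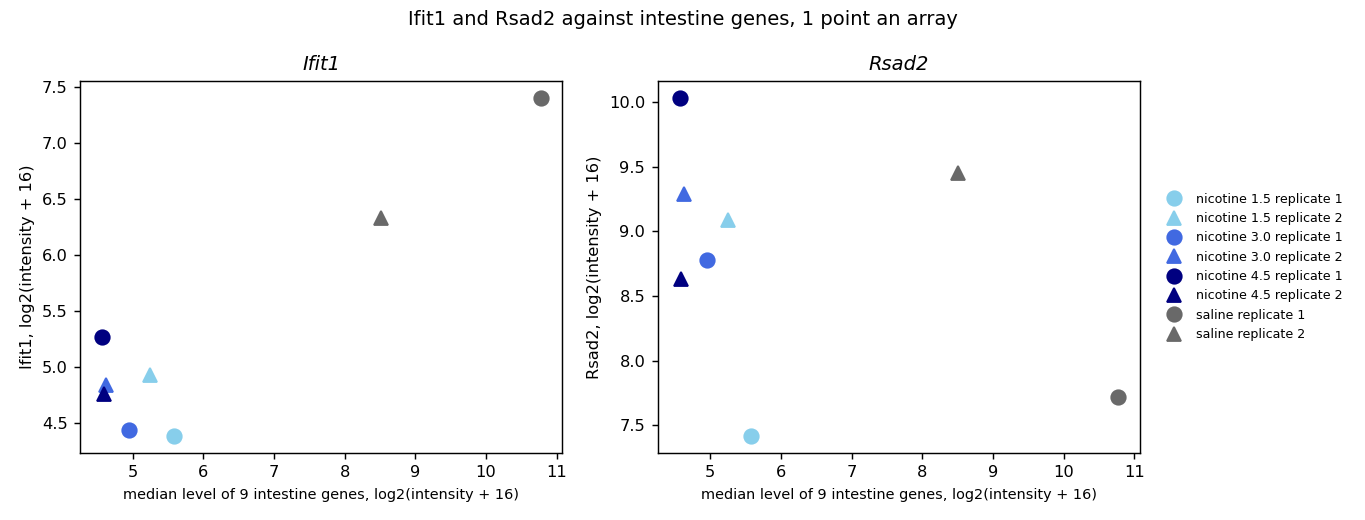
Log2 level of Ifit1 (left) and Rsad2 (right) against the median log2 level of 9 intestine genes, 1 point per array, with circles for replicate 1 and triangles for replicate 2. The nicotine arrays lie at intestine medians of 4.57 to 5.58 with Ifit1 at no more than 5.27, the saline arrays at 10.77 and 8.51 with Ifit1 at 7.40 and 6.33, and Rsad2 shows no such separation.

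Genes listed as markers of immune cells that respond to interferon or make it were read as levels. For 14 macrophage genes, 12 to 13 lay above the filter with nicotine and 14 with saline, and their summed intensity was 2037 to 3309 with nicotine, against 2688 to 3079 with saline. Their sums overlap between the groups, but single genes separated in both directions. Cx3cr1 was at 4.74 to 5.57 with nicotine, against 6.05 and 6.14 with saline. Mpeg1 and Aif1 were also lower in all nicotine arrays than in both saline arrays, a separation that 12.6% of all genes tested showed. Adgre1 instead was higher in all nicotine arrays (6.73 to 7.12) than with saline (6.65 and 6.41), as 16.8% of all genes tested were. For the mean of the doses 1 of 13 macrophage genes tested fell and 0 rose, where 5.4% of all genes fell and 4.75% rose. For 6 genes listed for plasmacytoid dendritic cells, the main makers of type I interferon, 3 to 5 lay above the filter with nicotine and 3 with saline. Their summed intensity was 268 to 785 with nicotine, against 252 to 261 with saline. Of these Siglech was under the filter in all arrays (at most 4.69), while Klk1 and Ly6d were above it in every array. The sum therefore rests on genes other than Siglech and cannot be read as a level of these cells. Ccr9 was at 6.02 and 7.59 at 4.5 mg/kg/day, the arrays where the T cell genes below were also higher, and at no more than 4.77 elsewhere. Ly6d was at 9.39 in nicotine 1.5 replicate 1, the array with the sum of 785, and at no more than 6.41 elsewhere. For the mean of the doses 1 of the 5 tested rose and 0 fell, where 4.75% of all genes rose and 5.4% fell. Summed intensity of 7 neutrophil genes was 819 to 2753 with nicotine and 1540 to 10033 with saline. That of 7 T cell genes was 163 to 265 at 4.5 mg/kg/day and 49 to 66 in the other arrays, saline included. Their part in the levels above was not tested.

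The wider interferon pathway was read from 124 further genes, of which 112 had a value and 91 passed the filter. For the mean of the doses 12 of these 91 fell and 0 rose, against 5.4% falling and 4.75% rising among all genes. Their median log2 fold change was -0.19, against 0.07 for all genes. All 6 nicotine arrays lay below both saline arrays in 27 of the 91, where 12.6% of all genes did so. They lay above them in 4, where 16.8% of all genes did so. The number of genes called as fallen, 12 with all arrays, depended on single arrays. That count was 0 without either array of the 3.0 mg/kg/day group, 2 and 4 without replicates 1 and 2 of the 4.5 mg/kg/day group, 3 without saline replicate 2, and 6 without nicotine 1.5 replicate 1. Against single doses 5 of the 91 fell at 1.5 mg/kg/day (1.75% of all genes), 1 at 3.0 (2.38% of all genes) and 1 at 4.5 mg/kg/day (3.97% of all genes), so that the share at 3.0 and 4.5 mg/kg/day was under that of all genes. None was called between doses.

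Ligands came out at the floor of the arrays. Of 14 listed interferon genes 9 had a value, none passed the filter, and their log2 levels ran from 4.09 to 5.24 over all arrays. The highest was Ifnb1, the gene of interferon beta, at 4.71 to 5.24. No change in the interferons themselves was thus measurable here.

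Of the receptor and signalling genes 14 passed the filter, all 6 receptors and 8 of 9 signalling genes with a value, and 0 of 14 changed, where 5.4% of all genes fell and 4.75% rose. The signalling gene left out was Socs1, a feedback inhibitor. Ifnar1, a chain of the type I interferon receptor, had log2 levels of 6.98 to 7.29 with nicotine and 7.17 and 7.26 with saline, with a log2 fold change of -0.04 ± 0.13 (adjusted p = 0.8398). Its partner Ifnar2 ranged from 7.12 to 8.72 with nicotine and was 7.24 and 7.64 with saline (0.54 ± 0.32; adjusted p = 0.2935). Il10rb, a receptor chain shared with lambda interferons, gave -0.66 ± 0.27 (adjusted p = 0.154), and Ifngr2, of the receptor for interferon gamma, gave -0.23 ± 0.15 (adjusted p = 0.3485). Among the signalling genes the smallest adjusted p was that of the kinase Jak1, with a log2 fold change of 0.36 ± 0.14 (adjusted p = 0.1429). The negative regulators Socs3 (0.44 ± 0.20), Ptpn6 (0.31 ± 0.13) and Pias1 (0.35 ± 0.16) did not pass the test either.

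Of the sensors and IRF transcription factors 3 of 15 fell for the mean of the doses, where 5.4% of all genes fell, and the list median was 0.04, against 0.07 for all genes. Each of the 3 calls was lost in several of 15 alternatives, with Irf1 called in 6, Irf8 in 5 and Ifih1 in 8. Irf1, a transcription factor induced by interferon gamma, had log2 levels of no more than 7.35 with nicotine, against 7.94 and 7.74 with saline (fold -0.68 ± 0.14; adjusted p = 0.03337). Irf8, a factor of myeloid cells, ran from 5.38 to 5.99 with nicotine and was 6.41 and 6.59 with saline (-0.86 ± 0.19; adjusted p = 0.03968). Ifih1, a sensor of long double-stranded RNA also called MDA5, ran from 5.64 to 6.30 with nicotine and was 6.92 and 6.98 with saline (-0.87 ± 0.20; adjusted p = 0.04071). The RNA sensor Ddx58 (RIG-I) had -0.82 ± 0.20 and missed the limit (adjusted p = 0.05156).

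Among other interferon targets 7 of 51 fell, where 5.4% of all genes fell, with a list median of -0.25 against 0.07 for all genes. Lgals3bp, a secreted galectin-binding glycoprotein, had log2 levels of 6.32 to 7.09 with nicotine and 7.97 and 8.12 with saline (fold -1.33 ± 0.22; adjusted p = 0.01769). Samd9l, an antiviral factor that limits translation, ran from 6.48 to 7.02 with nicotine and was 8.03 and 7.65 with saline (-1.01 ± 0.18; adjusted p = 0.02004). These values stand apart between the groups without touching the floor, unlike those of Ifit1. Ifi47, a GTPase induced by interferon gamma, fell by 1.50 on the log2 scale (SE 0.27; adjusted p = 0.02342), and Zc3hav1, the zinc finger antiviral protein, fell by 0.82 (SE 0.15; adjusted p = 0.02425). The last 3 of the 7, named because they were called, were Epsti1 (-1.26 ± 0.24), Oas1a (-1.40 ± 0.30) and Trim30a (-0.75 ± 0.18). Each of the 7 calls was lost in some alternatives. Of 15, Samd9l was called in 12, Lgals3bp in 11, Ifi47 and Zc3hav1 in 10 each, Oas1a in 8 and Trim30a in 4. Epsti1 was called in 8 of 12. Oas1a was at -0.79 without saline replicate 1 and -2.01 without saline replicate 2. Epsti1 had all 6 nicotine arrays under the filter level, and so entered the test through its saline level alone.

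Antigen presentation genes, which interferon raises in most cells, fell in 2 of 11 cases, where 5.4% of all genes fell, with a list median of -0.52 against 0.07 for all genes. H2-D1, a class I heavy chain, had log2 levels of 8.37 and 8.38 with saline, 7.09 and 7.23 at 1.5, 7.95 and 7.80 at 3.0, and 7.95 and 7.73 at 4.5 mg/kg/day. Its lowest group was the 1.5 mg/kg/day one, and its fold for the mean of the doses was -0.75 ± 0.14 (adjusted p = 0.02505). The other gene called for the mean of the doses was Erap1 (-0.64 ± 0.15). Both calls were lost in most of 15 alternatives, where H2-D1 moved to as little as -0.48 and Erap1 to -0.56. At 1.5 mg/kg/day H2-D1 (-1.21 ± 0.17; adjusted p = 0.02416), Erap1, which trims peptides for class I (-1.06 ± 0.18; adjusted p = 0.0419), and H2-K1 (-0.99 ± 0.19; adjusted p = 0.04944) fell, 3 of 11 where 1.75% of all genes fell. These calls were mostly lost in the 15 alternatives, H2-D1 being called in 6, Erap1 in 4 and H2-K1 in 2. At 1.5 mg/kg/day H2-D1 moved to as little as -0.68 and H2-K1 to -0.64. H2-D1 at 3.0 over 1.5 mg/kg/day differed by 0.71 ± 0.17, which did not pass the test over all genes (adjusted p = 0.3006). Class I genes are near copies of each other, and their probe sets may read more than 1 of them. H2-D1 had 9 probe sets and was read from the one of highest mean level.

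**Figure D5:**
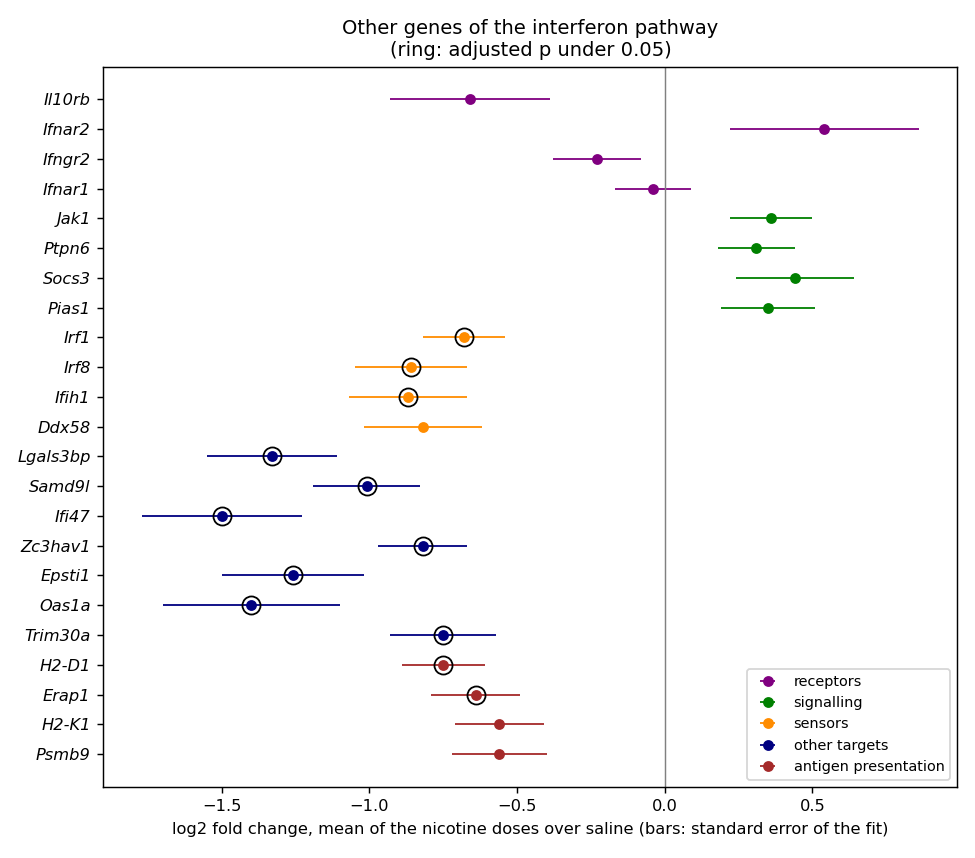
Log2 fold change (mean of the nicotine doses over saline) of 23 named genes of the wider interferon pathway, by role, with bars for the standard error of the fit and rings for an adjusted p under 0.05. The ringed genes run from -1.50 (Ifi47) to -0.64 (Erap1), and no receptor or signalling gene is ringed.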

How the data were processed

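Per the labels, 8 Affymetrix arrays were hybridised with biotin-labelled RNA of newborn palate. The deposited table gives a linear intensity for each of 45101 probe sets. The authors' summary, background and scaling steps are not given in the sources used, and the values come without detection calls. Array medians lay between 20.7 and 25.4, and precision is limited by how few arrays there are.

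Of the probe sets, 34945 named 1 gene in the platform annotation, 932 several and 9160 none, and 64 were controls. Symbols of 34741 were updated by Entrez ID. Values were taken as log2(intensity + 16), which understates folds near the floor, and quantile normalized, since array medians differed by 0.17. A gene with several probe sets was read from the one of highest mean level. A level filter at the 40th percentile over probe sets (4.94) was applied, and 13586 of 18193 genes were tested. The 4 group means were estimated from the 8 arrays in limma 3.58.1 (R 4.3.3), which left 4 residual degrees of freedom and 6.85 after moderation. Errors of folds are standard errors, and those of levels are SDs. The procedure was tested on simulated data. The labels give no batch.

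The members, the pathway lists and the marker lists were chosen with earlier results of these data known. All members are named, with up to 4 genes of each pathway list by smallest p and the 6 genes most correlated with the members' mean, and other named genes are said to be so. Alternatives were another constant, other filters, no normalization, all probe sets, the replicate number as a block, and leaving out arrays. Those for the wider pathway were chosen after seeing the data.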

Additional observations from a re-analysis of the deposited data

How the results depend on the processing

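Ifit1 kept its direction for the mean of the doses in 14 alternatives, with log2 fold changes of -3.12 to -1.55 and adjusted p of 0.005301 to 0.0516, and was called in 13. It was called in 6, 8 and 7 of 14 at 1.5, 3.0 and 4.5 mg/kg/day, with adjusted p of 0.01303 to 0.1297, 0.007793 to 0.2246 and 0.01105 to 0.1462. The count of interferon-induced genes called was 0 in each of the 4 comparisons with saline when the filter was at the 60th percentile, where Ifit1 was not tested. At the single doses it was also 0 with a constant of 1. Leaving out 1 array gave 0 to 1 in each. Without saline replicate 2 and nicotine 1.5 replicate 2, the arrays highest in liver genes, it was 2 for the mean of the doses. All genes called numbered 1380, 337, 506 and 934 for the mean of the doses and for 1.5, 3.0 and 4.5 mg/kg/day. Leaving out 1 array gave 355 to 1490, 104 to 911, 52 to 994 and 154 to 1367. A constant of 1 gave 157 at 1.5 mg/kg/day. Without the liver-rich pair there were 560 at 1.5 and 896 at 3.0 mg/kg/day, 229 for 3.0 over 1.5 and 201 for 4.5 over 1.5 mg/kg/day. Those last 2 counts were 0 with all arrays, and 0 to 47 and 0 to 39 when 1 array was left out.

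Replicate numbers did not pair the arrays: correlations of same-numbered deviations ran from -0.221 to 0.334. With the replicate number as a block, 849, 157, 278 and 522 genes were called in the 4 comparisons with saline, 0 interferon-induced genes at each single dose (Ifit1 adjusted p = 0.07745, 0.06233 and 0.07099 at 1.5, 3.0 and 4.5 mg/kg/day), and 5 wider pathway genes. Those pathway genes numbered 12 in the fit without the block and 0 to 10 when 1 array was left out.

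Changes of sign were found in values that did not pass the test. Leaving out 1 array gave Irf7 a range of -1.41 to 0.04 for the mean of the doses, -1.40 to 0.05 at 1.5 and -1.17 to 0.29 at 4.5 mg/kg/day, the highest each time without saline replicate 1. Rsad2 ran from -0.58 to 1.15 for the mean, -1.20 to 0.53 at 1.5, -0.42 to 1.31 at 3.0 and -0.13 to 1.60 at 4.5 mg/kg/day, with the lowest each time without saline replicate 1, and was 0.51 at 1.5 mg/kg/day without nicotine 1.5 replicate 1. Ifit2 at 3.0 mg/kg/day ran from -0.23 to 0.04, and was 0.04 without the liver-rich pair. Ifit3 at 4.5 mg/kg/day ran from -0.09 to 0.37, and without normalization was -0.04 at 3.0 and -0.02 at 4.5 mg/kg/day. Averaging probe sets gave 0.05 for Ifnar1 and -0.22 for Ptpn6, and Ifnar1 was 0.00 without saline replicate 2, alone or with the other liver-rich array. The cause was not tested.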
